A study of Mus musculus with 6 samples.

Results

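The genes described here encode the proteins of the cytosolic ribosome in mouse liver. They were chosen by name: every gene of the count table called Rpl, Rps or Rplp followed by a number, with an optional final a, x or l, and with at least 60 counts summed over the 6 libraries. The name pattern matched 82 of 55367 gene names and 78 of them, called the members below, reached the count minimum. By name, 44 belong to the large (60S) subunit, 31 to the small (40S) subunit and 3 to the acidic stalk. These tallies include Rpl6l, Rpl32l and Rps4l, which are annotated as pseudogenes. All 78 also passed the low-count filter of the test. Just inside the minimum lay Rpl38 with 68 counts and Rpl24 with 75. Outside it lay Rpl23a with 26 counts, Rpl3l with 15, and Rpl10l and Rpl39l with 0.

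Whole liver was compared between 3 libraries from Lmln-/- mice (Lmln-KO) and 3 from wild-type mice (WT), all C57BL/6J. The mice were 46 weeks old except the animal of Lmln-KO replicate 3, at 39 weeks. Lmln encodes a metalloprotease, invadolysin. The labels do not describe how the allele was made, and they name no treatment. Libraries were made from total RNA after removal of ribosomal RNA, with a directional kit, and read as pairs of 36 bases.

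A ribosome is built from ribosomal RNAs and, in the main, a single copy of each of its proteins, so the genes for these proteins are generally expressed together and in balance. Their messenger RNAs start with a pyrimidine tract (the 5′ terminal oligopyrimidine, or TOP, motif), through which the mTORC1 kinase pathway controls their translation. In liver, ribosomal protein messages follow growth, feeding and the demand for secreted proteins. Mammalian genomes also carry very many processed pseudogenes of these genes, copies of the spliced message that differ from it by few bases or none.

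The first 36 coding bases of a message, the length of 1 read, show how far the members can be told from their copies. The start codon is in capitals, the sequences are from GENCODE M21 transcripts, and the 5 genes were chosen because their levels or copies recur in the results below. The gene positions are chr15:76904078-76906314 for Rpl8 (plus strand), chr3:90212522-90213651 for Rps27 (minus), chr9:66946086-66949516 for Rps27l (plus), chr16:55966275-55971435 for Rpl24 (plus) and chr11:78180932-78183584 for Rpl23a (minus), all in GRCm38.
Rpl8: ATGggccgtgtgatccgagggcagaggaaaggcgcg
Rps27: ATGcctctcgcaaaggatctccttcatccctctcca
Rps27l: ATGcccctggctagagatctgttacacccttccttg
Rpl24: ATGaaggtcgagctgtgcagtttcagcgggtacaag
Rpl23a: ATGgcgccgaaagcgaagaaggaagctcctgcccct
The windows of Rpl8 and Rps27l were found in 0 other genes of the annotation. The Rps27 window was found in 1 other gene, the Rpl24 window in 2 and the Rpl23a window in 7. A read of such a shared stretch, taken alone, matches several places equally well.

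Over whole coding sequences, sharing was the rule for this family. Among the 75 members with a coding transcript in the annotation, the median member had 93.2% of its 36-base coding windows in at least 1 other gene, 44 members were over 90% and 0 members were free of sharing. The comparison family was the proteins of the mitochondrial ribosome, which are separate genes of similar number. Their median over 76 genes was 0%, and 47 of them shared 0 windows. Rps4l, Rpl6l and Rpl32l, the other 3 members, are themselves pseudogenes in that annotation.

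Levels per length spanned a wide range although most of the proteins are present once in each ribosome. On the scale of normalized CPM (each library's counts scaled to a common total) per kb of exon, averaged over the 6 libraries, the members ran from 0.634 for Rpl24 to 146.6 for Rplp1, a 231-fold range, with a median of 6.52. The highest after Rplp1, a stalk protein, were Rpl4, which lines the exit tunnel, at 108.7 CPM per kb, and Rpl8, at the peptidyl transferase centre, at 106.7 CPM per kb. The lowest besides Rpl24 were Rpl35, at the tunnel exit, at 0.729 CPM per kb and Rps10, a 40S protein mutated in human Diamond-Blackfan anaemia, at 0.783 CPM per kb.

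**Figure D1:**
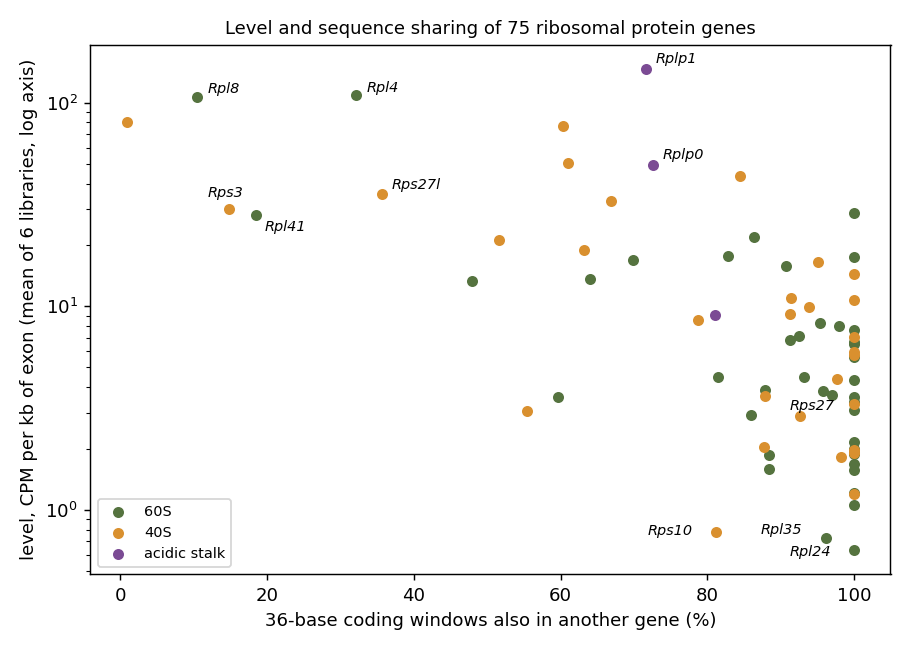
Level of each of 75 members (y axis, log scale, CPM per kb of exon, mean of 6 libraries) against the share of its 36-base coding windows that occur in another gene (x axis, %). Points are genes coloured by subunit: the points at 100% reach down to 0.634 CPM per kb, and Rpl8 and Rpl4 stand at the upper left.

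Members with more sharing had lower levels per kb. Across the 75 genes Spearman's rho was -0.57 between the shared percentage and the level, and Pearson's r with the log2 level was -0.64. The points are genes measured in the same libraries and are not independent replicates, and with windows over whole transcripts rather than coding sequence rho was -0.21. For the 76 mitochondrial ribosomal protein genes rho was -0.30 with either kind of window, and r with the log2 level was -0.43. Rpl8 shared 10.5% of its windows and stood at 106.7 CPM per kb. Rps27, a zinc-finger protein of the 40S subunit, shared 100% and stood at 3.30 CPM per kb, while its paralog Rps27l, a p53 target, shared 35.7% and stood at 35.4 CPM per kb. Whether sharing lowered the counts of the shared genes was not tested. The header of the count table names no option to count reads that map to several places.

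Copies of the members held more counts than the members themselves. The table contained 1293 pseudogenes that share at least 1 coding window with a member. Relative to the members' counts, their sum was 131%, 121% and 125% in the Lmln-KO libraries (replicates 1 to 3), against 131%, 132% and 128% in the WT libraries. Some single copies exceeded their parent several-fold, and others that hold all of its coding windows fell far below it. Over the 6 libraries Rpl15-ps3 had 52 counts against 1972 for Rpl15, and Gm12918 had 176 against 2010 for Rpl13. Rps6, the 40S protein phosphorylated by S6 kinase, had 1079 counts over the 6 libraries against 5669 for Rps6-ps4, which holds all of its coding windows. Rpl5, which carries the 5S ribosomal RNA and binds Mdm2, had 996 counts against 6272 for Gm15500, and Rpl3, at the peptidyl transferase centre, had 1374 counts against 5819 for Rpl3-ps1. Which of such a pair was transcribed cannot be told apart from these counts, so the level of a member with a close copy is uncertain.

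Overlapping genes add to that uncertainty. Counting used no strand option, so genes on opposite strands were not separated either. In 35 members another gene's exons overlapped the exons, in 14 of them over more than 10% of the exon length. The longest overlap was 66.2% in Rpl35, with Arpc5l and Wdr38 on the opposite strand. In Rpl24 a predicted gene on the same strand, Gm28037, overlapped 47.0%. Other overlaps were with small nucleolar RNAs encoded inside the member, such as Snord21 in Rpl5.

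A pyrimidine tract of the TOP kind was present at some annotated starts. RefSeq promoter entries (GRCm38.p6) existed for 57 members with 68 starts. A C at the first transcribed base followed by at least 4 pyrimidines (C or T), read on the gene's strand, was present at 14 of 68 starts (20.6%), against 2.51% of 32851 promoters in the table and 0 of 73 starts of mitochondrial ribosomal protein genes. Within 5 bases of the annotated start on either side it was found for 45.6% of member starts, 18.3% of all promoters and 23.3% of the mitochondrial starts. The following lines were picked from the 14 starts with the tract at the first base, for members described below. They give 10 bases before and 20 bases from the start, with the pyrimidine tract in capitals. Rpl35a also has annotated starts without the tract. The lines lie at chr3:90213629-90213658 (minus strand) for Rps27, chr4:86857348-86857377 (minus) for Rps6, chr7:141447641-141447670 (plus) for Rplp2, chr14:18270967-18270996 (minus) for Rpl15, chr2:39005112-39005141 (minus) for Rpl35 and chr16:33056472-33056501 (plus) for Rpl35a.
Rps27: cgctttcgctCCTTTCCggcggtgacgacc
Rps6: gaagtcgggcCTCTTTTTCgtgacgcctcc
Rplp2: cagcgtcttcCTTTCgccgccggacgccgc
Rpl15: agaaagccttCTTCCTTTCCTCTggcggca
Rpl35: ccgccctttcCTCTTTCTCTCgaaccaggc
Rpl35a: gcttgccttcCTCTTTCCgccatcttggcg
Tracts at the 14 starts, among them that of the pseudogene Rpl32l, were 5 to 13 bases long with a median of 8. The letters CCGGAAG, searched on both strands of the 300-base promoter, were found in 35.3% of the member promoters, 34.2% of the mitochondrial ones and 8.86% of all promoters. AAGATGGC was found in 10.3% of the member, 16.4% of the mitochondrial and 2.75% of all promoters, and TATAAA in 10.3%, 6.85% and 13.6% of these same sets. These matches describe the sequences only.

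The libraries were deeper in Lmln-KO, with 20957895 to 22494696 counts, than in WT, with 17388360 to 18272045. Lmln had 4, 12 and 2 counts in Lmln-KO against 79, 80 and 39 in WT libraries. Transcripts of the sex chromosomes split the libraries across the groups: Lmln-KO replicates 1 and 2 and WT replicate 1 held Y-linked transcripts, and the others held Xist. The 6 hepatocyte markers took 5.92% to 7.59% of counts in Lmln-KO and 7.62% to 9.43% in WT, whereas the 7 skeletal muscle markers had 4 to 12 counts in a library. The 8 B and plasma cell markers summed to 20.8 to 38.6 CPM in Lmln-KO, against 38.8, 233 and 402 CPM in WT replicates 1, 2 and 3, and 0 of the 8 were at 0 in any library. The part of the cell type markers in the results below was not tested. In bulk tissue, fewer cells of a type and less RNA per cell cannot be told apart.

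As a family, the ribosomal protein genes took a small share of the liver's counts, which differed between the groups by less than the spread of the WT libraries. Of all counts they held 0.198%, 0.197% and 0.201% in the Lmln-KO libraries (replicates 1 to 3), against 0.195%, 0.181% and 0.200% in the WT libraries. All libraries lay close together except WT replicate 2, which was the lowest, and the groups overlapped. The means were 0.199 ± 0.0022% in Lmln-KO and 0.192 ± 0.00995% in WT (SD, n = 3 each), and a two-sided exact permutation test gave p = 0.4, where 3 against 3 libraries cannot go below 0.1. With the pseudogene copies added, the shares were 0.449 ± 0.0114% in Lmln-KO and 0.442 ± 0.0194% in WT (exact permutation p = 0.6, an analysis chosen after the data were seen). The counts of 60S members over those of 40S members were 1.04 to 1.05 in Lmln-KO and 1.023 to 1.08 in WT.

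No member passed the test for genotype. In edgeR's quasi-likelihood test with Benjamini-Hochberg adjustment, 0 of 18703 genes were called at 0.05 (0% of all tested), and the smallest adjusted p of a member was 0.933. By DESeq2 24 genes were called (0.128% of all tested), of which 0 were members, and limma-voom called 0. At an unadjusted p under 0.05, edgeR gave 2 of 78 members (2.56%), against 871 genes or 4.66% of all tested. The 2 were Rps27, with higher values in Lmln-KO (1.52% of all tested genes in that direction), and Rpl24, with lower values (3.14%).

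The intervals show how large a difference these libraries could still hold. The 95% confidence interval of the fold change lay within 1.5-fold in either direction for 58 of 78 members (74.4%), against 40.9% of all tested genes, and within 2-fold for 72 members (92.3%), against 67.8%. Related lists were similar: within 1.5-fold lay 81.6% of 76 mitochondrial ribosomal protein genes, 92.5% of 40 translation factors and 75.5% of 49 ribosome biogenesis genes. The same held for 90% of 20 regulators of ribosomal protein synthesis. The share was lower, 55.6%, for 9 cytosolic ribosomal protein genes with names outside the pattern, and 62.5% for 8 noncoding hosts of small nucleolar RNAs. The median coefficient of biological variation, edgeR's estimate of the spread between libraries, was 18.4% for the members and 21.8% for all genes. Rpl24 was the only member with a fold change beyond 1.5-fold.

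**Figure D2:**
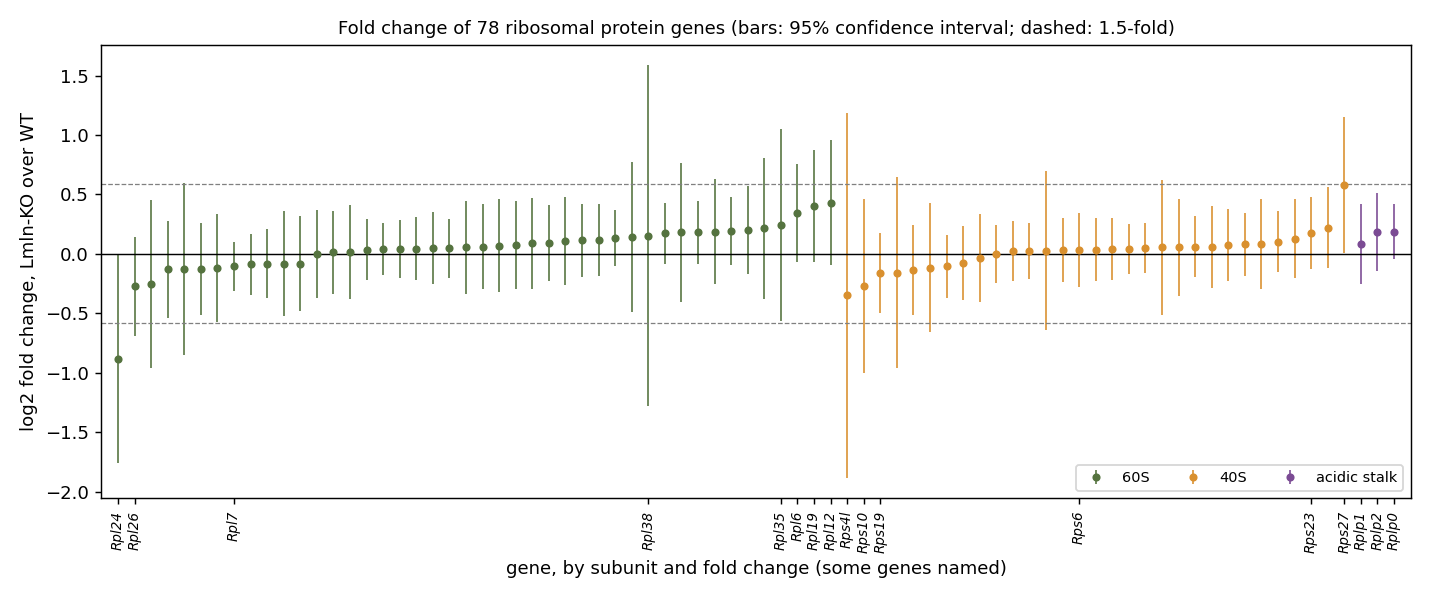
Log2 fold change of Lmln-KO over WT (y axis) for the 78 members, grouped by subunit and ordered by value; points are edgeR estimates and bars their 95% confidence intervals, with dashed lines at 1.5-fold. All intervals except those of Rps27 (0.0059 to 1.149) and Rpl24 (-1.76 to -0.01) include 0.

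More members had a positive than a negative fold change, and the balance moved when either of 2 libraries was left out. The log2 fold change was above 0 in 55 of 78 members (70.5%), against 49.4% of all tested genes, with a median of 0.05 for the members and 0.00 for all genes. It was above 0 in 31 of 44 60S members (median 0.06), in 21 of 31 40S members (median 0.04) and in 3 of 3 stalk members (median 0.18). Without WT replicate 2 it was above 0 in 35 of 78 (44.9%) and the median was -0.01. Without Lmln-KO replicate 2 it was above 0 in 41 of 78, with a median of 0.03. With a term for the sex-chromosome transcripts it was above 0 in 46 of 78 (59.0%) with a median of 0.02. Within the libraries with Y-linked transcripts 42 of 78 members had higher mean values in Lmln-KO (median difference 0.02 log2, against -0.01 for all genes), and within those with Xist 46 of 78 did (0.04, against 0.01).

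WT replicate 2 stood low for most of the family. It held the lowest value of 38 members, against 12, 1 and 13 for Lmln-KO replicates 1, 2 and 3 and 7 each for WT replicates 1 and 3. In that library 60 members lay below their own mean over the 6 libraries, with a median deviation of -0.14 on the log2 CPM scale. Lmln-KO replicate 2 was the opposite, with 16 members below their mean and a median deviation of 0.09. The 6 Kupffer cell markers summed to 170 to 204 CPM in the Lmln-KO libraries, against 253 CPM in WT replicate 2 and 184 and 200 CPM in the other WT libraries. All 6 had a negative log2 fold change (median -0.14), and 0 were called. Adgre1 (-0.51, unadjusted p = 0.00185 by edgeR) and Marco were highest in WT replicate 1 and the other 4 markers in WT replicate 2. The part of these markers in the low values was not tested.

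**Figure D3:**
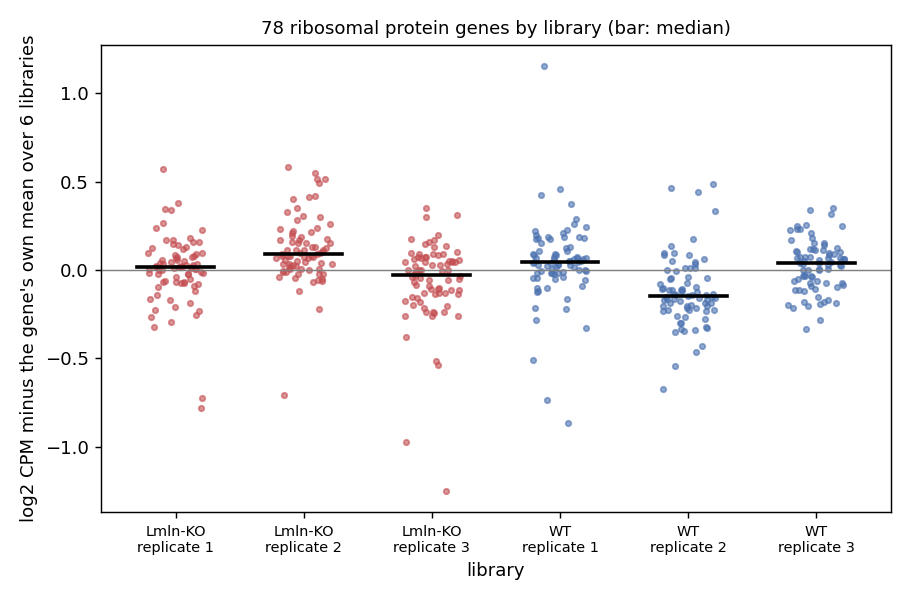
Deviation of each of the 78 members from its own mean log2 CPM over the 6 libraries (y axis), by library (x axis, Lmln-KO left, WT right); points are genes and black bars medians. The medians run between -0.14 in WT replicate 2 and 0.09 in Lmln-KO replicate 2.

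The members moved together only loosely between libraries. Over 3003 pairs of members the median Pearson correlation of log2 CPM across the 6 libraries was 0.25, and 66.8% of pairs were positive. The same values for pairs of other genes are not given here. Rplp1 followed the mean of the other members most closely (r = 0.97), then Rps9, a 40S protein (0.91), and Rpl8 (0.90). Rps10 (-0.85), the X-linked Rpl10 (-0.76) and Rpl22 (-0.66), a 60S protein needed for T cell development in mice, ran opposite to it. Of these, Rps10 rests on only 22 to 47 counts in a library. The genes outside the family most like the members' mean were Oxa1l (0.991), an insertase of the mitochondrial inner membrane, Nfix (0.989), a transcription factor, Pfkm (0.987), a phosphofructokinase, Atp11b (0.986), a phospholipid flippase subunit, and the predicted gene Gm5356 (0.985). These genes were picked as the extremes of all tested genes over 6 libraries, and the members named above as the extremes of the family. All these values are therefore a description only.

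By group, 8 of 78 members (10.3%) had no overlap between Lmln-KO and WT, which equals the 10.3% of all tested genes. The higher ones in Lmln-KO were Rps27, Rpl19, Rplp0, Rpl13, Rps23 and Rpl18, 6 of 78 against 4.61% of all genes, and the lower ones were Rpl24 and Rpl7, 2 of 78 against 5.73%.

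Rps27 was the member with the most positive fold change. It had 4.37, 4.44 and 3.58 CPM in Lmln-KO replicates 1, 2 and 3, against 1.96, 3.16 and 3.17 CPM in WT replicates 1, 2 and 3. The lowest Lmln-KO value lay above the highest WT value, and WT replicate 1 was far below the others. The log2 fold change was 0.58 (SE 0.248, 95% interval 0.0059 to 1.149, unadjusted p = 0.0482, adjusted p = 0.933 by edgeR). It was 0.39 without WT replicate 1 and 0.69 without WT replicate 3. Among the libraries with Y-linked transcripts, where WT replicate 1 is the only WT library, the difference of mean log2 CPM was 1.13. Among those with Xist it was 0.17. The retrocopy Rps27rt on chromosome 9, in which every coding window of Rps27 recurs, had 15.8, 13.8 and 13.6 CPM in Lmln-KO against 14.8, 14.5 and 21.02 CPM in WT. Summed, the pair reached 18.5 ± 1.5 CPM in Lmln-KO livers, against 19.6 ± 4.03 CPM in WT livers (n = 3 each, SD), and the groups overlapped. Rps27rt held most of this sum, so the overlap of the sum says little about Rps27 alone.

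Rpl24, a protein of the bridge between the subunits that is altered in the mouse Belly spot and tail mutant, was among the members with the fewest counts. It had 7, 11 and 12 counts in Lmln-KO against 15, 17 and 13 in WT, or 0.336, 0.520 and 0.512 CPM against 0.891, 0.909 and 0.749 CPM. All Lmln-KO values lay below all WT values, on few reads. The log2 fold change was -0.89 (SE 0.379, 95% interval -1.76 to -0.01, unadjusted p = 0.0472, adjusted p = 0.933 by edgeR). The pseudogene Gm9385, which holds 91.7% of its coding windows, stood at 7.95 ± 0.63 CPM in Lmln-KO, against 7.71 ± 1.45 CPM in WT livers. Rpl24 and Gm9385 together gave 8.41 ± 0.533 CPM in Lmln-KO, against 8.56 ± 1.48 CPM in WT livers (n = 3 each, SD), and the groups overlapped. Gm9385 held nearly all of this sum, so the overlap of the sum says little about Rpl24 alone. Another pseudogene, Gm12254, holds 73.4% of the coding windows of Rpl24. It had 823 counts over the 6 libraries and was not added.

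**Figure D4:**
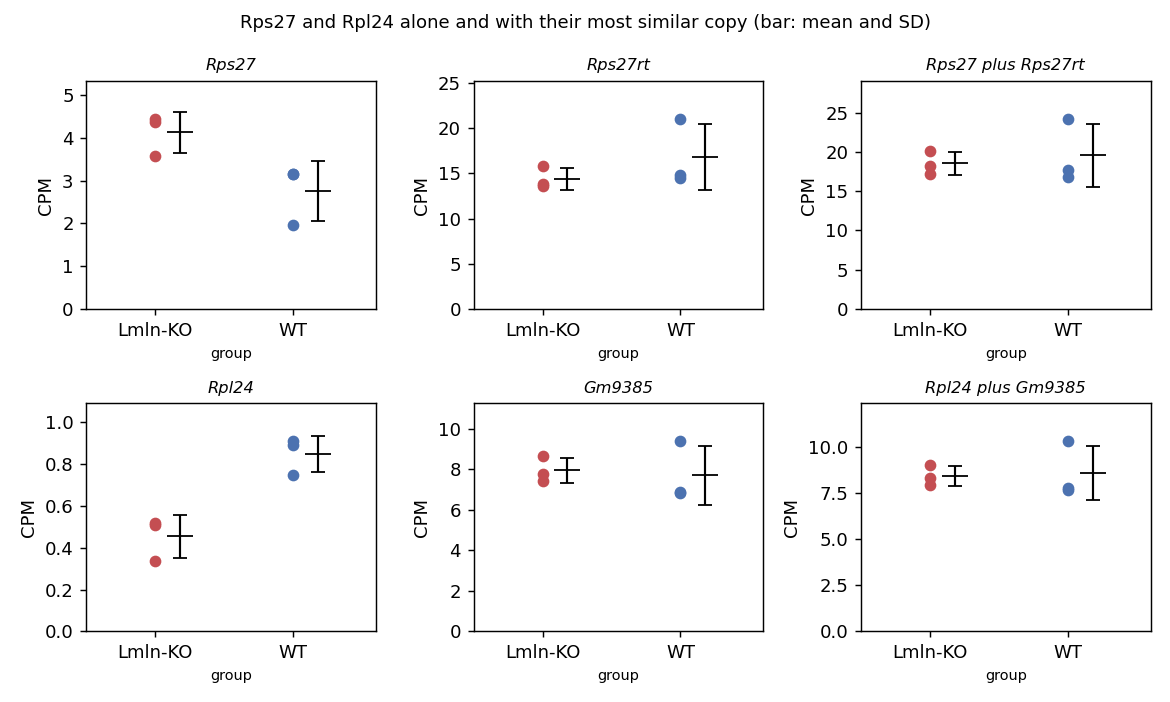
Normalized level (y axis, CPM, from 0) of Rps27 and Rpl24 alone, of their most similar copy, and of the sum, in Lmln-KO (left, red) and WT (right, blue); points are libraries, bars mean and SD of 3. The groups are apart for each member alone and overlap for the copy and for the sum. The copy holds most of each sum, so the overlap of the sum says little about the member alone.

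Other 60S members had log2 fold changes of up to 0.43. Rpl19, which also takes part in a bridge between the subunits, had 3.51, 4.58 and 3.75 CPM in Lmln-KO against 2.79, 3.16 and 2.99 CPM in WT, without overlap (log2 fold change 0.40, SE 0.204, unadjusted p = 0.0825). Together with Rpl19-ps11, which shares 93.5% of its windows, it reached 28.7 ± 0.912 CPM in Lmln-KO, against 27.5 ± 3.54 CPM in WT livers, with overlap. Rpl12, at the base of the stalk, had 8.60, 9.54 and 5.71 CPM in Lmln-KO against 6.47, 4.87 and 6.33 CPM in WT; Lmln-KO replicate 3 fell among the WT values. Rpl6 had 14.3, 13.98 and 12.1 CPM in Lmln-KO against 12.4, 8.08 and 11.4 CPM in WT, where WT replicate 2 was the low library. Their log2 fold changes were 0.43 (SE 0.228) for Rpl12 and 0.34 (SE 0.179) for Rpl6. That of Rpl6 was 0.18 without WT replicate 2 and 0.47 without WT replicate 1. With its copy added, the level was 45.3 ± 7.13 CPM in Lmln-KO, against 41.01 ± 5.95 CPM in WT livers, for Rpl12 with Gm10275. For Rpl6 with Gm6136 it was 47.4 ± 6.36 CPM in Lmln-KO, against 44.98 ± 4.93 CPM in WT livers (n = 3 each, SD), and the groups of both sums overlapped. In the sums for Rpl19, Rpl12 and Rpl6 the copy held most of the counts, so their overlap says little about the member alone.

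Rpl15, Rpl13 and Rpl18, further proteins of the 60S subunit, had log2 fold changes between 0.13 and 0.18 with unadjusted p-values of 0.151 to 0.229. Rpl13 had 17.7, 19.2 and 16.9 CPM in Lmln-KO against 16.7, 15.2 and 15.8 CPM in WT, and Rpl18 had 19.6, 18.3 and 18.7 CPM against 16.5, 17.5 and 17.6 CPM. Both pairs of groups were apart by less than 1 CPM. On the lower side stood Rpl26, which binds the p53 message in human cells, and Rpl7. Rpl26 had 8.17, 10.4 and 8.23 CPM in Lmln-KO against 13.1, 9.84 and 9.50 CPM in WT. Its log2 fold change was -0.27 (SE 0.18), and it was -0.11 without WT replicate 1 and -0.40 without Lmln-KO replicate 2. Rpl7 had 56.0, 56.1 and 57.6 CPM in Lmln-KO against 58.3, 60.6 and 63.6 CPM in WT (log2 fold change -0.10, SE 0.0889). Rpl26 overlapped and Rpl7 did not. Rpl27, Rpl22, Rpl21, Rpl13a and Rpl7a had values between -0.25 and -0.08 on the same scale. Leaving out 1 library moved each of them either way. The values nearest to 0 lay between -0.054 and -0.0051, and those furthest from it between -0.45 (Rpl27) and -0.17 (Rpl7a). Rpl13a is the protein that leaves the 60S subunit in interferon-treated human cells.

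The stalk proteins, which recruit the elongation factors to the 60S subunit, had positive fold changes in 3 of 3 members. Rplp0 had 92.9, 85.1 and 84.8 CPM in Lmln-KO against 81.5, 71.9 and 77.2 CPM in WT. Every Lmln-KO library lay above every WT library, and the log2 fold change was 0.19 (SE 0.0993, 95% interval -0.04 to 0.42, unadjusted p = 0.0954, adjusted p = 0.933 by edgeR). Together with Gm8730, which shares 56.4% of its windows, it reached 123.7 ± 8.13 CPM in Lmln-KO, against 112.2 ± 7.72 CPM in WT livers (n = 3 each, SD), with overlap. Rplp2 had 20.6, 22.6 and 16.4 CPM in Lmln-KO against 19.1, 16.8 and 16.7 CPM in WT (log2 fold change 0.18, SE 0.143). Rplp1 had 74.2, 84.0 and 67.5 CPM in Lmln-KO against 77.0, 57.9 and 78.4 CPM in WT (0.08, SE 0.145). The groups of Rplp1 and Rplp2 overlapped, and the lowest Rplp1 value was that of WT replicate 2.

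Among the 40S members, Rps23, at the decoding centre, had 14.4, 14.6 and 14.1 CPM in Lmln-KO against 13.5, 10.9 and 13.8 CPM in WT, apart by a narrow margin. Its log2 fold change was 0.18 (SE 0.131), and it was 0.075 without WT replicate 2 and 0.24 without WT replicate 3. Rps19, the gene most often mutated in human Diamond-Blackfan anaemia, had 12.9, 15.8 and 11.9 CPM in Lmln-KO against 16.1, 13.7 and 15.5 CPM in WT, with overlap. Its log2 fold change was -0.16 (SE 0.145), and it was -0.069 without Lmln-KO replicate 3 and -0.29 without Lmln-KO replicate 2. Rps15a, Rps10 and Rps28 had log2 fold changes of -0.10, -0.27 and -0.13. The value of Rps15a was -0.025 without Lmln-KO replicate 3, that of Rps10 was -0.029 without Lmln-KO replicate 2 and that of Rps28 was -0.021 without Lmln-KO replicate 1. Other omissions moved them away from 0: Rps15a to -0.15 without Lmln-KO replicate 1, Rps10 to -0.44 without replicate 3 and Rps28 to -0.25 without replicate 2. Rps6 had 8.70, 8.93 and 9.98 CPM in Lmln-KO against 9.21, 8.50 and 9.27 CPM in WT (0.03, SE 0.134).

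For the 5S particle, which stabilises p53 by binding Mdm2, the log2 fold change was 0.02 (SE 0.171) for Rpl5 and -0.08 (SE 0.192) for Rpl11. Rpl41, the smallest protein of the ribosome, had 32.4, 35.1 and 30.6 CPM in Lmln-KO against 28.9, 27.9 and 41.3 CPM in WT, and its fold change was 0.00 (SE 0.161). Of the members highest per kb, Rpl4 averaged 220.9 ± 9.5 CPM in Lmln-KO against 215.6 ± 16.2 CPM in WT, and Rpl8 147.4 ± 5.78 CPM in Lmln-KO against 142.6 ± 11.3 CPM in WT (n = 3 each, SD).

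One member lies beside the disrupted gene, and was looked at for its position. Rpl35a, a 60S protein whose start is printed above, ends 2331 bases before Lmln on chromosome 16 and is read on the same strand (33056453 to 33060189, with Lmln at 33062521 to 33127695, GRCm38). It had 15.1, 15.2 and 12.2 CPM in Lmln-KO against 15.7, 11.98 and 11.8 CPM in WT. The groups overlapped, with a log2 fold change of 0.11 (SE 0.16, 95% interval -0.26 to 0.48). Rpl24 is on the same chromosome, 22.8 Mb away.

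The paralogs known from other tissues had few counts or 0. Rpl10l and Rpl39l, testis copies of the X-linked Rpl10 and Rpl39, had 0 counts in all libraries together, which allows at most 0.0253 CPM. Rpl3l, the copy of Rpl3 in heart and skeletal muscle, had 3, 1 and 0 counts in Lmln-KO and 5, 4 and 2 in WT. Of the coding windows of Rpl3l 0% occur in another gene. Rpl23a, a 60S protein at the tunnel exit, was also below the minimum, with 6, 5 and 4 counts in Lmln-KO and 6, 3 and 2 in WT, and 100% of its coding windows are shared.

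The parents of those paralogs and the remaining X-linked members overlapped between the groups. Rpl10 had 36.1, 34.4 and 38.0 CPM in Lmln-KO against 33.2, 37.0 and 35.6 CPM in WT (log2 fold change 0.04, SE 0.0951), and Rpl39, in the exit tunnel, had 8.26, 7.79 and 8.53 CPM against 7.90, 6.79 and 8.93 CPM (0.06, SE 0.155). Rps4x had 26.8, 27.8 and 27.9 CPM in Lmln-KO against 29.1, 22.8 and 26.1 CPM in WT (0.08, SE 0.113). Rpl36a had 1.73, 2.55 and 2.09 CPM in Lmln-KO against 1.84, 1.76 and 2.01 CPM in WT (0.18, SE 0.253). For each the groups overlapped and the difference of means was smaller than the SD of at least 1 group. The same held for Rpl3 (0.09, SE 0.165) and Rps27l (0.08, SE 0.163).

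Rps4l, the autosomal copy of Rps4x on chromosome 6, was the most variable member. It had 7.06, 8.64 and 2.47 CPM in Lmln-KO replicates 1, 2 and 3, against 13.5, 4.44 and 5.18 CPM in WT replicates 1, 2 and 3. The 3 libraries with Y-linked transcripts were the 3 highest, and WT exceeded Lmln-KO in every pair within each set. By genotype alone the log2 fold change was -0.35 (SE 0.619, unadjusted p = 0.594), and with the sex-chromosome transcript term it was -0.86 (unadjusted p = 0.00103, adjusted p = 0.761 by edgeR). The difference of mean log2 CPM was -0.79 among the libraries with Y-linked transcripts and -0.93 among those with Xist. Without WT replicate 1 the fold change was 0.33, of the opposite sign. With the term, 1 of 18703 genes was called (0.00535% of all tested), and 0 of these were members. At an unadjusted p under 0.05 it gave Rps4l, Rps27 and Rpl26, 3 of 78 members, against 4.34% of all tested genes.

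In the wider machinery of the ribosome and translation, 0 genes were called in each list. Of 40 translation factors 30 had a positive log2 fold change (median 0.06), and the smallest p belonged to Eif1, which selects the start codon, with 53.6, 51.2 and 54.9 CPM in Lmln-KO against 62.7, 67.3 and 60.6 CPM in WT, without overlap (-0.26, SE 0.0928, unadjusted p = 0.0248, adjusted p = 0.933 by edgeR). Gspt1, the release factor eRF3a, and Eif2s2, a subunit of eIF2, stood at 0.25 (SE 0.152) and 0.27 (SE 0.173) on the log2 scale. Of 49 ribosome biogenesis genes 34 were positive (median 0.05). Rrn3, the initiation factor of RNA polymerase I, had 30.6, 42.1 and 24.5 CPM in Lmln-KO against 23.9, 24.8 and 21.1 CPM in WT (0.48, SE 0.191, unadjusted p = 0.0381), with Lmln-KO replicate 2 far above the rest. The values were 0.43 (SE 0.204) for Lyar and 0.26 (SE 0.126) for Riok2, a kinase of 40S maturation.

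Of 20 regulators of ribosomal protein synthesis 11 were positive (median 0.01). Larp4, which binds poly(A) tails, had 73.5, 87.1 and 73.7 CPM in Lmln-KO against 68.5, 64.6 and 52.6 CPM in WT, without overlap (0.34, SE 0.131, unadjusted p = 0.0337). Tsc1, an inhibitor of mTORC1, stood at -0.20 (SE 0.106) and Rps6kb2, an S6 kinase, at 0.24 (SE 0.131). Of 8 tested noncoding hosts of small nucleolar RNAs 5 were positive (median 0.01), led by Gas5 at 0.16 (SE 0.107). Of 9 cytosolic ribosomal protein genes with names outside the pattern 7 were positive (median 0.12), among them Fau at 0.22 (SE 0.15), while Rps27rt stood at -0.22 (SE 0.167) and Rpl22l1, the paralog of Rpl22, at -0.26 (SE 0.225). Of 76 mitochondrial ribosomal protein genes 47 were positive (median 0.04), with Mrps11 at 0.39 (SE 0.174).

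**Figure D5:**
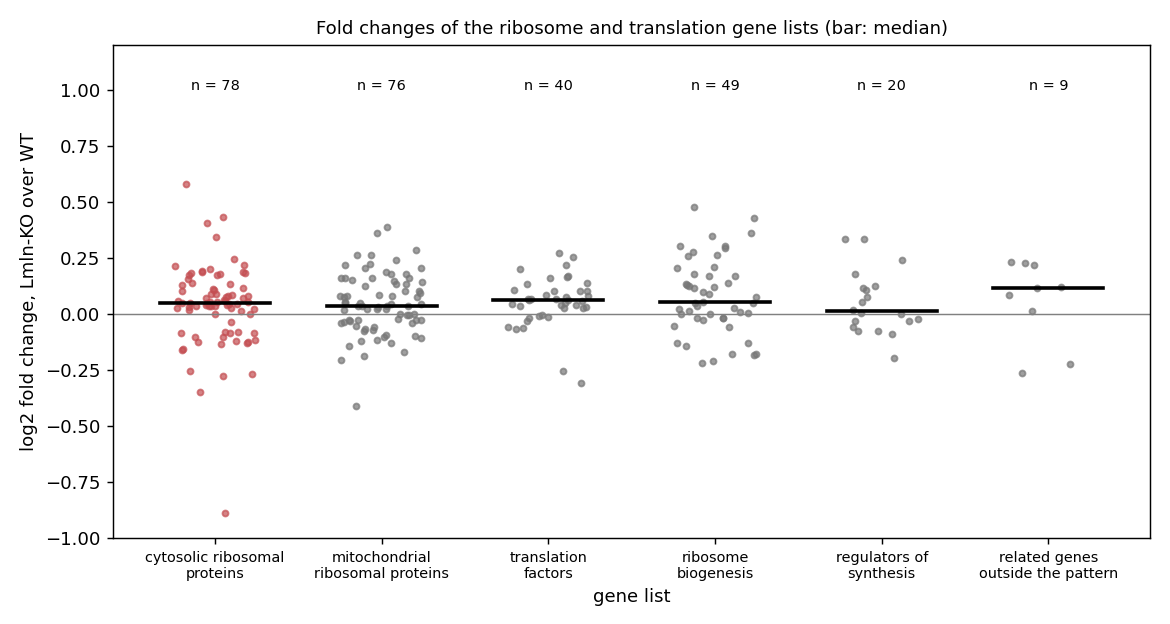
Log2 fold change of Lmln-KO over WT (y axis) for the members and for the related gene lists (x axis); points are genes, black bars medians, and n the number of genes tested. The medians lie between 0.01 and 0.12, and the members hold the widest range, down to Rpl24 at -0.89.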

How the data were processed

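Gene-level read counts of 6 liver libraries were used as deposited. Per the file headers the authors made these counts with featureCounts 2.0.1 over exons of Ensembl release 102 (GRCm38), summed by gene name, without options for pairs, strand or reads mapping to several places. The submitters' processing notes name Subread 2.0.2 and edgeR 3.36.0, with the aligner not given in the sources used here. Exon length per gene from the deposited table served for levels per kb.

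Counts were tested in edgeR 4.0.16 (R 4.3.3): TMM scaling, filterByExpr with a minimum count of 10 (18703 genes), a quasi-likelihood fit (robust) with genotype as the only term, and p-values adjusted after Benjamini and Hochberg over all tested genes, with a threshold of 0.05. The SE of a log2 fold change was its size over the square root of F. CPM are TMM-normalized, and log2 CPM carry a prior count of 2. The steps were tested on simulated counts. Alternatives were other scalings and filters, DESeq2 1.42.0, limma-voom (limma 3.58.1), a term for Xist or Y-linked transcripts, the replicate number as a block, and leaving out each library. Shared sequence was counted as exact 36-base windows against GENCODE M21 transcripts on GRCm38, outside the gene's own locus. Promoters came from RefSeq.

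The members and gene lists were chosen with earlier results of these data known. Named genes followed a rule: up to 12 members higher and 12 lower with the smallest p, the extremes per kb, stalk, paralog and X-linked members, 5 members with known further roles, up to 3 genes of each list and the 5 most similar genes; Rps9, Rpl35a and the copies were added after their values were seen, and some genes that the rule names are not reported here. The labels number the replicates without saying that each is a separate animal, so p-values measure the spread between these libraries, which differed by more than sampling noise. The floor for genes with 0 counts (3 counts over all libraries) covers counting error only, whereas the intervals of fold changes include the spread between libraries.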

Additional observations from a re-analysis of the deposited data

How the results depend on the processing

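The number of genes called by genotype was 0 in edgeR, 3 without a low-count filter, 24 by DESeq2, 1 with the sex-chromosome transcript term and 0 to 3 when each library was left out; 0 members were called under any of these. Members with an unadjusted p under 0.05 numbered 2, against 1 with upper-quartile scaling, 0 with library totals alone, 0 with a minimum count of 50 (71 members tested), 0 by DESeq2 and 0 to 3 when each library was left out. Of all 18703 tested genes 871 were under it, against 905 with upper-quartile scaling, 814 with library totals alone and 764 by DESeq2. With a minimum count of 50 there were 566 of 13073. Leaving out each library gave between 448 of 19409 and 1751 of 19529. Members without overlap numbered 8, and 12 to 22 when a library was left out, which leaves fewer values to overlap. The share of all tested genes without overlap is not given for those settings, so these numbers say nothing particular about the members. Members with a positive log2 fold change numbered 35 without WT replicate 2 and 41 to 59 when another library was left out. The median of all genes was -0.03 with upper-quartile scaling, where 50 members were positive. The difference in share of counts kept its direction under every setting run, with exact permutation p of 0.1 to 0.8. The replicate numbers did not pair the libraries. Correlations of deviations were 0.465, -0.311 and 0.405 for same-numbered replicates and ran from -0.681 to 0.490 for the others. They were positive where both libraries held Y-linked transcripts or both held Xist, and negative otherwise. With the replicate block 1 gene was called. Under an unadjusted p of 0.05 it gave 0 members, against 1209 of 18703 genes. Rpl38 and Rpl24 rest on 4 to 17 counts in a library. No named member was past the threshold, and the sign of 13 depended on the setting. Rpl41 was 0.0096 with RLE scaling, 0.0026 with library totals, 0.016 without a filter, 0.0096 by DESeq2, 0.021 by limma-voom and 0.020 with the block. With the sex-chromosome transcript term it was 0.021, against -0.0036 for Rpl4, -0.0019 for Rpl3, -0.011 for Rps27l, -0.092 for Rpl5 and 0.0036 for Rpl11, and with upper-quartile scaling Rpl5 was -0.0097. Leaving out each library gave -0.11 to 0.20 for Rpl41, -0.095 to 0.15 for Rpl5, -0.023 to 0.086 for Rpl4, -0.054 to 0.22 for Rpl3, -0.029 to 0.27 for Rps27l, -0.20 to 0.030 for Rpl11, -0.047 to 0.16 for Rplp1, -0.70 to 0.33 for Rps4l, -0.022 to 0.078 for Rps6, -0.0025 to 0.072 for Rpl10, -0.018 to 0.090 for Rpl8, -0.039 to 0.16 for Rpl39 and -0.0080 to 0.17 for Rps4x. The cause was not tested.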
